A study of Oryctolagus cuniculus with 34 samples.

Results

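Of 12937 genes tested in rabbit supraspinatus muscle, 38 made up a list of lipid synthesis, storage and transport genes. They were taken by the start of their symbol (such as ACSL, FABP, LPIN, OSBP or ABC followed by a family letter) from 3310 tested genes with a symbol, and hormone-sensitive lipase was left out of the list. All 38 passed the minimum of 1 CPM (counts scaled to a common library size) in at least 1 library, and no measured difference entered the name pattern. The symbols themselves came from 2 tables of the study, each used here only in part (1999 genes of the one and 1952, of modules 0 and 1, of the other). For 19 of the 38 members the only source was a table of co-expressed genes picked on the repair libraries, whose tested genes leaned upward: 63.9% of the 1447 genes named only there had a log2 fold change (log2FC, repair minus control) above 0 at 1 week, against 50.6% of 1863 genes in the other, identifier-ordered table. The name pattern also took in 4 genes with no lipid role that share only a prefix, namely ABCE1, ABCF1 and ABCF2, which act in translation, and GPATCH8, an RNA-binding protein. Perilipins, fatty acid synthase, lipoprotein lipase, apolipoproteins, carnitine palmitoyltransferases and PPARs had no symbol in these partial tables and were not analysed here, which says nothing of whether the study measured them.

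The samples were RNA-seq libraries from both shoulders of 17 female New Zealand White rabbits 6 months of age. In the left shoulder the supraspinatus tendon was cut, left for 8 weeks and then repaired, and muscle was taken 1, 2, 4 or 8 weeks after the repair. By the methods of the study, RNA came from a piece of the posterior lateral region of the muscle. That region was picked there as the one most affected in this model. The right shoulder was the control. The labels name a sham (a skin cut), and the methods of the study call that shoulder unoperated in one place and sham in another, so which of these the control values stand for is not settled here. In the fit, 4 repair libraries stood against 4 controls for week 1, 5 against 5 for week 2, 4 against 4 for week 4 and 3 against 4 for week 8. Because both shoulders belong to the same animal, the control muscle had been in a rabbit with an operated other side, and no rabbit without surgery was among the groups.

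Muscle fibres burn fatty acids and hold little fat, whereas a detached cuff muscle is known to gain adipocytes and fat within and between its fibres. Fatty acids are activated to acyl-CoA by synthetases, extended and desaturated by elongases and desaturases, and joined to glycerol by acyltransferases, after which lipins supply the diacylglycerol for triglyceride. Cholesterol synthesis is run by SREBP2 and its target enzymes, while lipases and phospholipases free stored or membrane lipid, and binding proteins and ABC transporters move lipids between membranes, lipoproteins and cells.

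Library totals on genes ranged from 9220035 to 28395188 (median 12127768) in the 33 libraries of the fit. The left library of rabbit 3 (8 weeks, 8756033 counts) was outside it. Median totals of repair and control were 19426453 and 17651293 at 1 week, and 11197505 and 10467247 at 2 weeks. They were 10647461 and 10524453 at 4 weeks, and 16919274 and 21124371 at 8 weeks. The 3 repair totals of 8 weeks (13262913 to 18269171) all lay below those of the controls (19978076 to 23569025). The libraries of 1 and 8 weeks carried sample titles of one series and those of 2 and 4 weeks titles of another, so every contrast of repair with control lay within a series. The 6 muscle fibre markers summed to 8143 to 39620 CPM in the repair libraries of 1 week and 40800 to 51700 CPM in their controls. In that list ATP2A1, TNNT3, MYOM2 and TCAP were lower in 4 of 4 rabbits. DES was level (log2FC 0.005) and MYF6 was higher in 4 of 4 rabbits (0.40). Adipocyte markers (ADIPOQ, LIPE, CD36) summed to 451 to 1237 CPM in repair against 233 to 361 in control at 1 week, to 329 to 1070 against 246 to 323 at 2 weeks, and to 555 to 916 against 148 to 321 at 4 weeks. For 8 fibroblast markers the sums at 1 week were 4901 to 18270 against 1304 to 1704, and for 9 macrophage markers 51.7 to 148 against 24 to 46.2. At 8 weeks the sums of each of these 4 lists overlapped between repair and control. None of these markers was at 0 in every library of a group. The part of these shifts in the results below was not tested. In RNA of mixed tissue, a change in the number of cells of a type cannot be told apart from a change of RNA per cell.

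Several repair libraries stood apart by their markers, that of rabbit 59 the furthest in macrophage and fibroblast markers. In the repaired shoulder of rabbit 59 at 2 weeks, macrophage markers summed to 558 CPM (group median 24.1) and fibroblast markers to 56770 CPM (group median 1831), while its muscle fibre sum of 9498 CPM was the lowest of its group (median 31010). Among the 38 members, 16 were more than 2-fold higher and 8 more than 2-fold lower in that library than in the other shoulder of the rabbit. The share of all genes past 2-fold is not given. The repaired shoulder of rabbit 62 at 2 weeks had a fibroblast sum of 15440 CPM and a macrophage sum of 149 CPM, over controls of 709.5 to 1193 and 12 to 19.8 CPM. At 1 week rabbit 7 had sums of 18270 and 148 CPM for the same lists. The repaired shoulder of rabbit 6 at 1 week had the lowest muscle fibre sum (8143 CPM) and the highest adipocyte sum (1237 CPM) of all 33 libraries. Its ATP2A1, TNNT3 and MYOM2 stood at 3063, 346 and 220 CPM, against 25570, 6422 and 3042 CPM in its control. DES and TCAP were lower by less (2738 against 4716 and 1522 against 2829 CPM), and MYF6 was higher (254 against 218 CPM). Without the library of rabbit 6 the members called at 1 week went from 3 to 2, with ACOT13 lost, and 6.8% of all genes were called. Without that of rabbit 62 those called at 2 weeks went from 6 to 2, ABCF1 and OSBPL3, and 5.9% of all genes were called. Levels at 2 weeks are given with the library of rabbit 59, and the calls of that time are also set beside fits without it.

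At 1 week 3 of 38 members passed an adjusted p of 0.05 in limma-voom. ABCC3 and OSBPL3 rose and ACOT13 fell. Over all genes tested 13.7% were called, so the 3 members (7.89%) stood below the background. At 2 weeks 6 members (15.8%) were called against a background of 15.9%: OSBPL3, OSBPL7 and PLTP rose, and ACOT13, GPAT4 and ABCF1 fell. Of the 38 members 0 were called 4 weeks after repair, where 0.124% of all genes were, and 0 after 8 weeks (0.00773% of all genes). At an unadjusted p under 0.05 the members numbered 14, 17, 7 and 1 at the 4 times (36.8%, 44.7%, 18.4% and 2.63%), beside 33.3%, 35.7%, 15.9% and 3.07% of all genes. Members could come only from the 3310 tested genes with a symbol. Of those 3310, 14.2%, 21.0%, 0.151% and 0% were called in limma-voom at the 4 times. Their shares at an unadjusted p under 0.05 were 36.4%, 44.4%, 15.6% and 3.35%. With edgeR's quasi-likelihood test the counts of called members were 4, 16, 2 and 0 (backgrounds 12.1%, 28.7%, 2.53% and 0.00773%), and with DESeq2 5, 18, 3 and 0 (17.9%, 31.2%, 5.16% and 0.0387%). The median log2FC of the members was 0.18, 0.29, 0.22 and -0.02 in time order, beside 0.05, 0.06, 0.05 and 0.01 over all genes tested. Split by the source of the symbol, the medians at 1 week were -0.21 for the 19 members of the identifier-ordered table (0.01 for its 1863 tested genes) and 0.28 for the 19 known only from the co-expression table (0.23 for its 1447). At 2, 4 and 8 weeks the former 19 had medians of 0.12, 0.09 and -0.06 (0.03, 0.04 and 0.01 for its table) and the latter 0.47, 0.34 and 0.05 (0.43, 0.18 and 0.05 for its table).

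**Figure D1:**
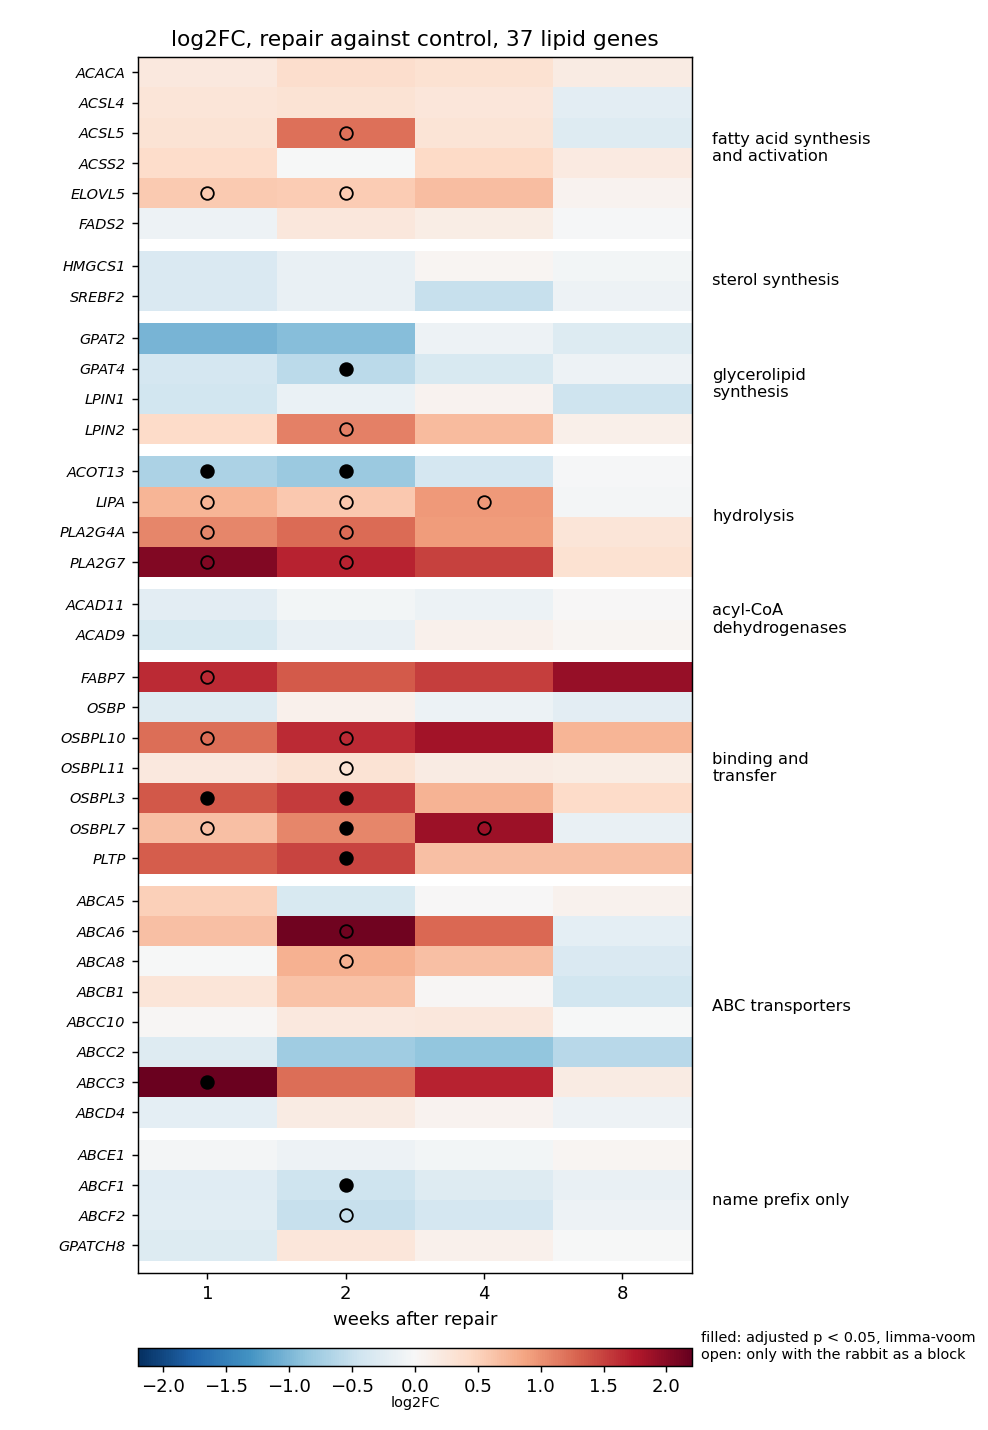
log2FC of repair against control for 37 of the 38 members (rows, grouped by role) at 1, 2, 4 and 8 weeks after repair (columns). Red is higher and blue lower in the repaired shoulder; filled circles mark the 9 calls of limma-voom, which all lie at 1 or 2 weeks, and open circles those made only when the rabbit was a block.

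The 2 shoulders of a rabbit share the animal. With the rabbit as a fixed block in limma-voom, the 4 times gave 10, 17, 2 and 0 called members, beside backgrounds of 26.3%, 31.6%, 2.81% and 0.00773%. With a correlation between the shoulders estimated over all genes in its place, the counts were 6, 12, 2 and 0 (22.4%, 25.2%, 1.46% and 0.00773%). All 9 calls of the fit without the block were among those of the fixed block. The additional members of 1 week were ELOVL5, FABP7, LIPA, OSBPL10, OSBPL7, PLA2G4A and PLA2G7, and those of 4 weeks LIPA and OSBPL7. At 2 weeks they were ABCA6, ABCA8, ABCF2, ACSL5, ELOVL5, LIPA, LPIN2, OSBPL10, OSBPL11, PLA2G4A and PLA2G7. With the estimated correlation the calls of ELOVL5, FABP7, OSBPL10 and PLA2G4A at 1 week were lost (adjusted p 0.0565 to 0.111), as were those of ACSL5, ELOVL5, LIPA, PLA2G4A and PLA2G7 at 2 weeks (0.0606 to 0.117) and that of LIPA at 4 weeks. Without the 2 libraries of rabbit 59, the blocked fit called 14, 2, 3 and 0 members (37.4%, 7.74%, 8.58% and 0.024% of all genes). Without only the repair library of rabbit 59 and with no block, 9, 1, 2 and 0 members were called, beside 28.7%, 2.62%, 2.76% and 0.00799% of all genes. The 9 of 1 week were ABCC3, ACOT13, ELOVL5, LIPA, OSBPL10, OSBPL3, OSBPL7, PLA2G7 and PLTP, and the 2 of 4 weeks LIPA and OSBPL7. The 1 member of 2 weeks was OSBPL11, and none of the 6 calls made with that library was left. All 6 kept their direction with smaller log2FCs, which went from 1.54 to 1.23 for OSBPL3, from 1.08 to 0.80 for OSBPL7, from 1.49 to 0.92 for PLTP, from -0.81 to -0.66 for ACOT13, from -0.60 to -0.41 for GPAT4 and from -0.46 to -0.33 for ABCF1. The counts of 2 weeks therefore depended on that rabbit, while the directions of these 6 did not.

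Among proteins that bind or transfer lipids, OSBPL3 was called at 2 times. It encodes an oxysterol-binding protein relative that works at contacts between the endoplasmic reticulum and the plasma membrane. At 1 week it measured 4.99, 13.5, 6.96 and 4.58 CPM in the repaired shoulders of rabbits 5 to 8, against 2.78, 3.16, 2.39 and 2.64 CPM in their control shoulders. Every repair library lay above every control, with a log2FC of 1.36 ± 0.34 (SE) and an adjusted p of 0.0119 (limma-voom). At 2 weeks the repair libraries held 11.1, 3.03, 4.76, 6.02 and 4.22 CPM (rabbits 59, 60, 61, 62 and 64) and the controls 1.25, 1.66, 2.14, 2.98 and 1.74. The groups again did not overlap, the log2FC was 1.54 ± 0.43 and the adjusted p 0.0229. The gene was the only member without overlap upward at that time, where 4.1% of all genes were. At 4 weeks it was higher in 3 of 4 rabbits (2.2 to 5.68 against 1.77 to 3.52 CPM, log2FC 0.77 ± 0.47, adjusted p 0.421) and at 8 weeks the log2FC was 0.43 ± 0.35 (adjusted p 0.999). The call of 1 week was lost without the control library of rabbit 7 (adjusted p 0.057) and that of 2 weeks when the repaired shoulder of rabbit 59 or the control shoulder of rabbit 60 was left out (adjusted p up to 0.0891).

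OSBPL7, another member of that family, was at low level throughout. At 2 weeks it measured 5.01, 1.92, 1.46, 2.74 and 2.65 CPM in repair and 1.35, 0.828, 1.75, 1.44 and 0.980 CPM in control, in the order of rabbits given above. It was higher in 4 of 5 rabbits, with a log2FC of 1.08 ± 0.34 and an adjusted p of 0.0335. The largest estimate came at 4 weeks, with 3.98, 2.12, 3.06 and 1.37 CPM in the repaired shoulders of rabbits 63, 66, 67 and 68 against 1.53, 0.561, 0.414 and 0.417 CPM. Each rabbit was higher on the repaired side there, while rabbit 68's repaired shoulder lay under rabbit 63's control. The log2FC was 1.89 ± 0.45 with an adjusted p of 0.0702, and 0.019 with the rabbit as a block. At 1 week the repair libraries (2.75 to 3.04 CPM) all exceeded the controls (1.39 to 2.36 CPM), with an adjusted p of 0.0862 and 0.0426 with the block. At 8 weeks the levels met, at 1.80 to 2.15 CPM against 1.98 to 2.42. The call of 2 weeks was lost without any one of 6 libraries, namely the repair libraries of rabbits 59 and 62 and the controls of rabbits 59, 60, 62 and 64 (adjusted p up to 0.138).

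PLTP encodes the plasma phospholipid transfer protein, which moves phospholipid between lipoproteins. At 1 week it stood at 79.0, 112, 141 and 110 CPM in repair and at 37.2, 47.9, 38.9 and 46.9 CPM in control. The groups did not overlap, yet the gene was not called (log2FC 1.34 ± 0.57, adjusted p 0.103, and 0.0537 with the block). Without the repair library of rabbit 59 and with no block it was called (1.35 ± 0.43, adjusted p 0.0221). At 2 weeks the repair libraries spread from 34 to 547 CPM, with 547, 57.5, 43.6, 214 and 34 CPM against 36.5, 31.8, 45.9, 34.2 and 26.8 CPM in the controls. Rabbits 59 and 62 were far above their controls, rabbit 60 was above by less, rabbit 64 slightly above, and rabbit 61 slightly below. This gave a log2FC of 1.49 ± 0.49 and an adjusted p of 0.0405, a call lost without any one of 7 of the 10 libraries of that time, those of the repaired shoulders of rabbits 59 and 62 and of all 5 controls (adjusted p up to 0.181). At 4 weeks 3 of 4 rabbits were higher (log2FC 0.66 ± 0.54, adjusted p 0.554). All 3 pairs were higher at 8 weeks (72.0 to 136 against 55.3 to 80.3 CPM), with an adjusted p of 0.999.

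The other members of this group were OSBP, OSBPL10, OSBPL11 and FABP7. OSBP, the cholesterol and PI4P exchanger at the Golgi, showed log2FCs of -0.28, 0.12, -0.13 and -0.24 at the 4 times, none called. OSBPL11 moved little (0.16 to 0.31) and at 2 weeks had an adjusted p of 0.0818, 0.0355 with the block and 0.0314 in the fit with no block that left out rabbit 59 in repair. OSBPL10 was near the detection minimum, and at 1 week its repair libraries (0.962 to 2.08 CPM) lay just above the controls (0.427 to 0.887 CPM), with an adjusted p of 0.0951 and 0.0312 with the block. Its estimate at 2 weeks was 1.64 ± 0.63 (adjusted p 0.0667, and 0.011 with the block), of which 5.52 CPM in rabbit 59 was the highest value, and the adjusted p was 0.171 in the blocked fit without that rabbit. With no block and without the repair library of that rabbit the estimate was 1.01 (adjusted p 0.291). The largest estimate of OSBPL10 in limma-voom on all 33 libraries came at 4 weeks (1.86 ± 0.82, adjusted p 0.268). It was higher in 3 of 4 rabbits then, at 0.196 to 1.53 CPM against 0.104 to 0.546. At 8 weeks it was higher in 3 of 3 rabbits (0.75 ± 0.57, adjusted p 0.999).

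FABP7, a fatty acid-binding protein best known from glia, was the member with the largest estimate at 8 weeks. Its repaired shoulders held 7.16, 6.88 and 4.45 CPM (rabbits 1, 2 and 4) and its controls 2.61, 1.39, 1.23 and 1.28 CPM (rabbits 1 to 4). It was the only member whose repair libraries all lay above the controls at that time, where 4.24% of all genes did so. The log2FC was 1.92 ± 0.67 with an adjusted p of 0.999, and 0.43 with the block. At 1 week the level was 19.1 CPM in rabbit 6 but 0.599, 2.83 and 0.733 CPM in the other repaired shoulders, over controls of 0.428 to 1.61 CPM. That estimate was not called (1.64 ± 0.82, adjusted p 0.163), although it was with the block (2.5, adjusted p 0.0025); rabbit 5 went the other way. The one Schwann cell marker measured, L1CAM, was higher in 5 of 5 rabbits at 2 weeks and called (1.71 ± 0.45, adjusted p 0.0179), when FABP7 was also higher in 5 of 5 but not called (1.35 ± 1.15, adjusted p 0.402); its part in FABP7 was not tested. At 8 weeks L1CAM lay between 0.862 and 2.90 CPM in the 8-week repair libraries and between 0.991 and 2.40 CPM in their controls.

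**Figure D2:**
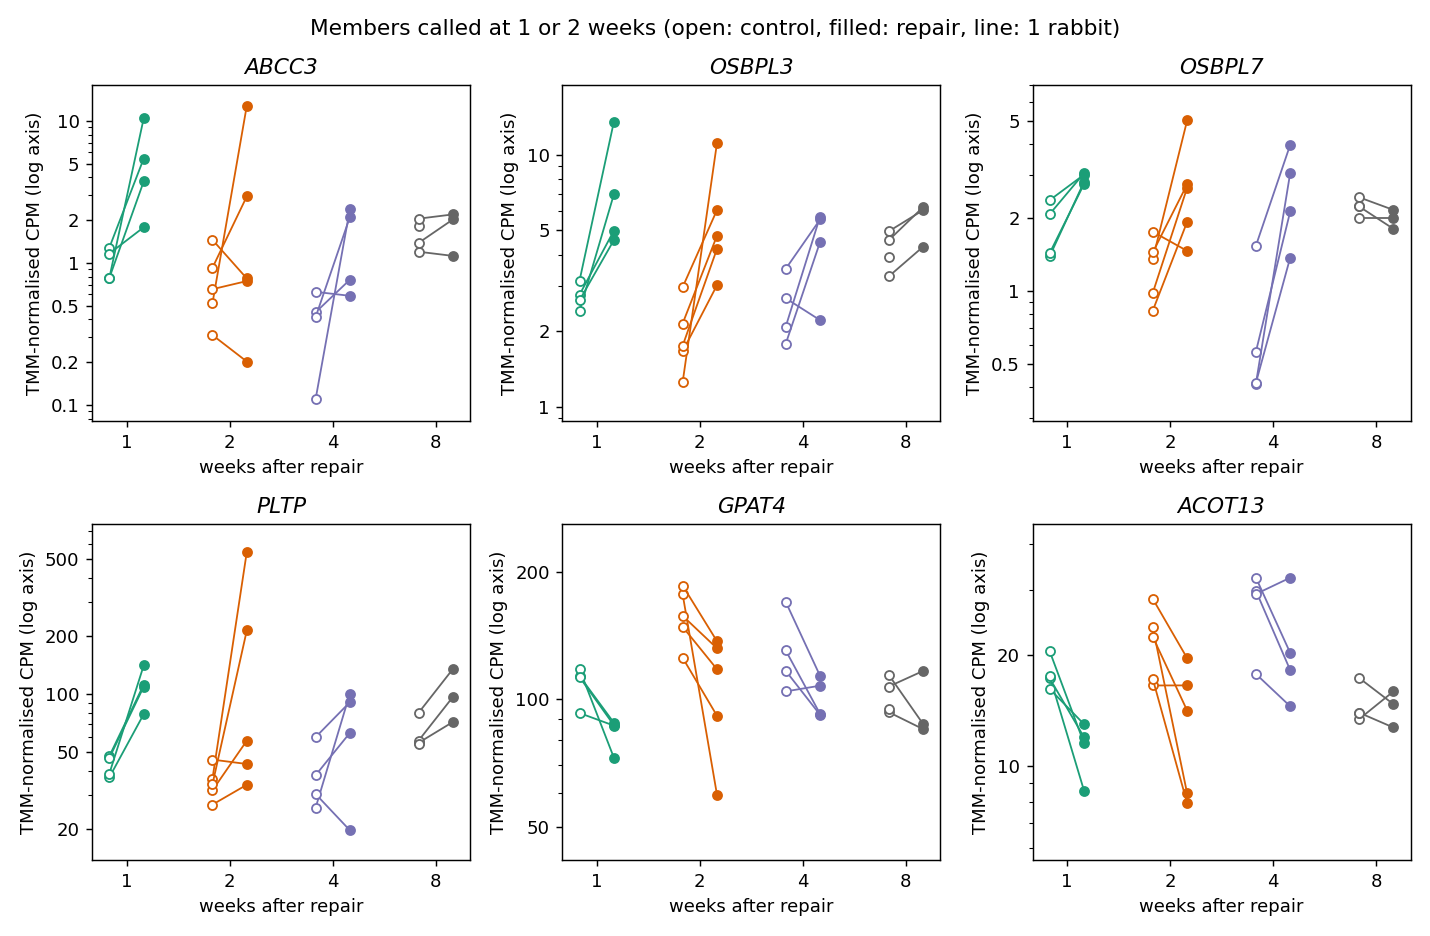
TMM-normalised CPM (log axis) of the 6 lipid genes called at 1 or 2 weeks, by weeks after repair; open circles are control and filled circles repair libraries, and a line joins the shoulders of 1 rabbit. ABCC3 and OSBPL3 rise in all 4 rabbits of 1 week and ACOT13 falls, while PLTP at 2 weeks runs from 34 to 547 CPM among repaired shoulders.

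Among 8 ABC transporters, limma-voom without the block called 1 at 1 week (12.5%, beside 13.7% of all genes). It called 0 at the later times, beside 15.9%, 0.124% and 0.00773% of all genes. ABCC3, an exporter of conjugated bile salts and other organic anions, measured 5.44, 1.78, 10.5 and 3.75 CPM in the repaired shoulders of rabbits 5 to 8 and 1.28, 1.16, 0.786 and 0.785 CPM in the controls. All repair libraries were above all controls, though rabbit 6 only narrowly. The log2FC of 2.17 ± 0.67 was the largest of any member at that time (adjusted p 0.0334). Without the repair library of rabbit 7 or any one of the 4 controls the call was lost, with adjusted p up to 0.117. At 2 weeks a single library was high: 12.8 CPM in rabbit 59, against 0.202, 0.778, 2.94 and 0.746 CPM in the other repaired shoulders and 0.311 to 1.46 CPM in the controls. That contrast was not called (log2FC 1.23 ± 0.91, adjusted p 0.33), whereas edgeR and DESeq2 called it (adjusted p 0.0217 and 0.00845). Without that library the log2FC in limma-voom was 0.31 (adjusted p 0.871). At 4 weeks 3 of 4 rabbits were higher (0.587 to 2.39 against 0.109 to 0.626 CPM, log2FC 1.69 ± 1.17, adjusted p 0.485) and at 8 weeks the groups overlapped (1.12 to 2.2 against 1.20 to 2.05 CPM).

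ABCA6 and ABCA8, lipid transporters of the A family, were not called at 2 weeks by limma-voom without a block and were called with one. ABCA6 held 198, 19.3, 7.0, 42.2 and 4.64 CPM in repair and 6.65, 3.31, 5.34, 5.13 and 6.64 CPM in control. It was higher in 4 of 5 rabbits, most in rabbit 59 (log2FC 2.14 ± 0.79, adjusted p 0.0607). With the block the log2FC was 2.79 (adjusted p 0.00451, and 0.0651 when rabbit 59 was left out), and edgeR and DESeq2 called the gene as well. Without the repair library of rabbit 59 and with no block its log2FC was 1.32 (adjusted p 0.167). ABCA8 was higher in all 5 rabbits, at 28.4 to 61.9 CPM against 14.1 to 33.4, with a log2FC of 0.78 ± 0.31 and an adjusted p of 0.0749. The adjusted p was 0.0234 with the block, 0.0427 in DESeq2, 0.0583 in edgeR and 0.127 in the blocked fit without rabbit 59. With no block and without the repair library of that rabbit the log2FC was 0.80 (adjusted p 0.156). ABCA5, a further member of that family, had repair libraries of 58.7 to 89.9 CPM above controls of 38 to 54.9 CPM at 1 week (adjusted p 0.144) and overlapped at the other times. ABCC2, a relative of ABCC3 that exports conjugates into bile, ran the other way. It stood at 2.64 to 5.16 CPM in repair and 6.16 to 9.5 CPM in control at 4 weeks, without overlap (log2FC -0.87 ± 0.41, adjusted p 0.303). The efflux pump ABCB1, ABCC10 and the vitamin B12 transporter ABCD4 had log2FCs between -0.43 and 0.65 over the 4 times, and none was called.

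Among enzymes that cut lipid esters and thioesters, ACOT13 fell. It encodes a mitochondria-associated thioesterase that releases fatty acids from long-chain acyl-CoA. At 1 week it measured 12, 11.5, 8.58 and 13.0 CPM in repair and 17.3, 20.5, 17.5 and 16.2 CPM in control. No repair library reached a control, and the log2FC was -0.69 ± 0.24 with an adjusted p of 0.0497. This value lay at the threshold, and leaving out a single library lost the call in 23 of 33 fits (adjusted p up to 0.162). At 2 weeks the levels were 8.44, 16.6, 19.6, 7.94 and 14.2 CPM against 23.8, 16.6, 28.4, 17.2 and 22.4 CPM. Rabbit 60 was level between its shoulders and the other 4 were lower in repair (log2FC -0.81 ± 0.23, adjusted p 0.0238). That call was lost without the repair library of rabbit 59 or 62 or the control of rabbit 61 (adjusted p up to 0.105). At 4 weeks 3 of 4 rabbits were lower (log2FC -0.39 ± 0.24, adjusted p 0.429) and at 8 weeks the estimate was -0.03 ± 0.26. Muscle fibre marker sums were lower in the repair libraries at 1 week as given above, although DES and MYF6 of that list did not fall. At 2 weeks the repaired shoulders of rabbits 59 and 62, lowest in ACOT13, had fibre sums of 9498 and 15630 CPM. The controls of that time had sums of 21790 to 47600 CPM. The part of these markers in the fall of ACOT13 was not tested.

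PLA2G7, the secreted phospholipase that hydrolyses platelet-activating factor and oxidised phospholipid and is made largely by macrophages, had large estimates with wide errors. At 1 week it was at 6.69, 4.62, 20.2 and 7.0 CPM in repair and 1.43, 2.05, 2.32 and 2.00 CPM in control. The groups did not overlap, and the log2FC was 2.04 ± 0.80 with an adjusted p of 0.0803, and 0.00785 with the block. At 2 weeks rabbits 59 and 62 held 71.7 and 15.7 CPM and the other 3 repaired shoulders 2.22 to 2.43 CPM, over controls of 1.85 to 3.43 CPM. The adjusted p was 0.153, 0.00436 with the block and 0.131 when rabbit 59 was left out of the blocked fit. With no block, the log2FC of 2 weeks went from 1.70 to 0.75 without the repair library of that rabbit. At 4 weeks the levels were 1.86 to 10.7 CPM against 0.939 to 1.66 CPM (adjusted p 0.566).

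LIPA, the lysosomal acid lipase that splits cholesteryl esters and triglyceride taken up by the cell, was higher in every rabbit at 1 and 4 weeks. It measured 31.2, 39, 38.4 and 35.0 CPM at 1 week against 16.9, 22.5, 22.2 and 24.1 CPM, without overlap (log2FC 0.74 ± 0.28, adjusted p 0.0705, and 0.0311 with the block). At 4 weeks the repair libraries held 64.3, 48.5, 36.5 and 25.6 CPM and the controls 23.6, 17.1, 20.1 and 25.0 CPM. Here too no values overlapped, although rabbit 68 was only just above its control (log2FC 0.96 ± 0.29, adjusted p 0.125, 0.0454 with the block and 0.0572 with the estimated correlation). With no block and without the repair library of rabbit 59, LIPA was called at 1 and 4 weeks (adjusted p 0.0183 and 0.0358). At 8 weeks the log2FC was -0.05 ± 0.30. Macrophage marker sums at 4 weeks were 5.70 to 63.9 CPM in repair and 8.41 to 25.1 CPM in control, and rabbit 68's repaired shoulder, in which CD163 and C1QB had no count, held the lowest. PLA2G4A, the cytosolic phospholipase A2 that frees arachidonic acid, was higher in 4 of 4 rabbits at 1 week (2.69 to 6.99 against 1.57 to 2.93 CPM, log2FC 1.08 ± 0.48, adjusted p 0.12, and 0.0241 with the block). It was higher in 4 of 5 rabbits at 2 weeks (adjusted p 0.109, 0.0135 with the block and 0.126 with the block but without rabbit 59, which held 13 CPM).

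**Figure D3:**
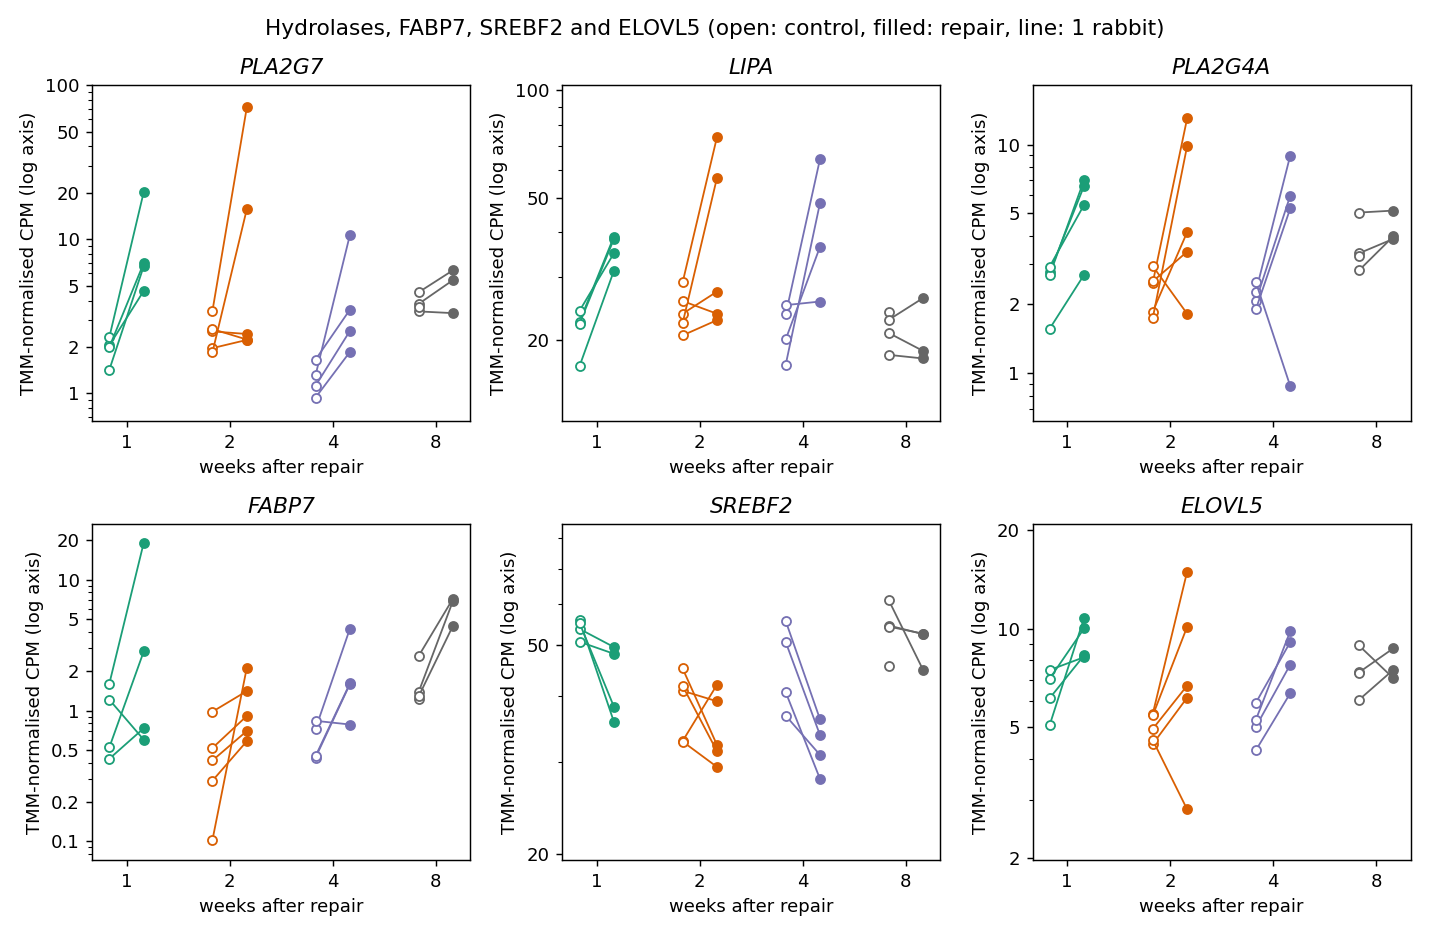
TMM-normalised CPM (log axis) of 3 hydrolases (PLA2G7, LIPA, PLA2G4A), the binding protein FABP7, SREBF2 of sterol synthesis and the elongase ELOVL5, by weeks after repair; open circles are control and filled circles repair libraries, and a line joins the shoulders of 1 rabbit. LIPA is higher in each rabbit of 1 and 4 weeks, and FABP7 in each of the 3 pairs of 8 weeks; none of the 6 was called at any time by limma-voom run on all 33 libraries with neither a block nor quality weights.

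Of 4 genes of glycerolipid synthesis, GPAT4 was called at 2 weeks. It encodes a glycerol-3-phosphate acyltransferase of the endoplasmic reticulum and lipid droplets, which takes the first step of triglyceride synthesis. The repair libraries measured 59.5, 132, 137, 91.5 and 118 CPM and the controls 177, 158, 186, 125 and 148 CPM. All 5 rabbits were lower on the repaired side (log2FC -0.60 ± 0.17, adjusted p 0.024), although rabbits 60 and 61 in repair exceeded rabbit 62's control. Without the repair library of rabbit 59 or 62 or the control of rabbit 61 the call was lost (adjusted p up to 0.0945). At 1 week the gene was lower in 4 of 4 rabbits without overlap, at 72.8 to 88.0 CPM against 92.8 to 118 (log2FC -0.38 ± 0.20, adjusted p 0.173). At 4 and 8 weeks the log2FC was -0.35 and -0.10. GPAT2, a mitochondrial relative best known from testis, lay between 0.15 and 1.67 CPM in the 33 libraries. Its estimates were -1.03 ± 0.45 at 1 week (no overlap, adjusted p 0.108) and -0.94 ± 0.46 at 2 weeks (adjusted p 0.142). The latter was -0.58 without the repair library of rabbit 59.

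The lipins LPIN1, the main muscle form, and LPIN2 are phosphatidate phosphatases that also act on transcription. LPIN1 was not called at any time. At 8 weeks its repaired shoulders (55.3, 51.5 and 47.5 CPM) all lay below the controls (63.5, 75.5, 81.9 and 63.9 CPM), with a log2FC of -0.46 ± 0.28 and an adjusted p of 0.999. LPIN2 was higher in 4 of 5 rabbits at 2 weeks and in 4 of 4 at 4 weeks. At the later of these times it held 3.98, 4.32, 4.07 and 3.91 CPM against 2.95, 2.13, 1.76 and 3.55 CPM, without overlap (log2FC 0.69 ± 0.53, adjusted p 0.535). At 2 weeks its highest value was 19.7 CPM in rabbit 59 (log2FC 1.12 ± 0.44, adjusted p 0.0757, 0.00993 with the block and 0.164 without that rabbit). Without the repair library of rabbit 59 and with no block the log2FC was 0.59 (adjusted p 0.294).

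None of the 6 genes of fatty acid synthesis and activation was called by limma-voom on all 33 libraries with neither a block nor quality weights. Their median log2FC in that fit was 0.30, 0.35, 0.32 and 0.03 at 1, 2, 4 and 8 weeks. In the repaired shoulders of 4 weeks, 3 of the 6 lay above every control. ACACA, the acetyl-CoA carboxylase that commits carbon to fatty acid synthesis, measured 17.3, 15.0, 18.1 and 15.8 CPM against 14.4, 10.2, 12.9 and 14.9 CPM (log2FC 0.34 ± 0.27, adjusted p 0.543). ACSS2, which makes acetyl-CoA from acetate, measured 87.3, 111, 97.3 and 87.1 CPM against 74.5, 62.1, 76.1 and 68.4 CPM (log2FC 0.44 ± 0.25, adjusted p 0.381). ELOVL5, an elongase of polyunsaturated fatty acids, measured 7.77, 6.36, 9.82 and 9.10 CPM against 5.02, 4.26, 5.28 and 5.95 CPM (log2FC 0.67 ± 0.33, adjusted p 0.311). Over the whole list 7 members were higher and 2 lower without overlap at 4 weeks, where 5.19% and 3.93% of all genes were. The counts were 9 and 5 after 1 week (16.1% and 13.3% of all genes), 1 and 1 after 2 weeks (4.1% and 3.73%), and 1 and 2 after 8 weeks (4.24% and 3.32%).

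ELOVL5 was also higher in 4 of 4 rabbits at 1 week (8.18 to 10.8 against 5.09 to 7.48 CPM), with an adjusted p of 0.107 and 0.0433 with the block. It was called there without a block when the repair library of rabbit 59 was left out (log2FC 0.58, adjusted p 0.0298). In rabbit 6, ACACA and ACSS2 stood out at 1 week, at 50.8 and 171 CPM, while the other 3 repaired shoulders held 17.8 to 19.8 and 62.4 to 83.3 CPM. This was the library with the lowest muscle fibre sum (8143 CPM) and the highest adipocyte sum (1237 CPM), and with the high FABP7 of 19.1 CPM. Of its fibre markers only MYF6 was above the control of that rabbit (254 against 218 CPM). The part of muscle fibres and adipocytes was not tested. The acyl-CoA synthetase ACSL5 had one high library at 2 weeks, 14.4 CPM in rabbit 59, over 0.911 to 5.13 CPM in the other repaired shoulders and 1.14 to 2.62 CPM in the controls (adjusted p 0.0987, 0.0186 with the block and 0.242 with the block but without that rabbit). With no block, its log2FC went from 1.20 to 0.61 without the repair library of that rabbit. ACSL4, which prefers arachidonic acid, and the desaturase FADS2 had log2FCs between -0.24 and 0.32.

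In sterol synthesis, HMGCS1 and SREBF2 were not called at any time by limma-voom on all 33 libraries with neither a block nor quality weights. HMGCS1 encodes HMG-CoA synthase, an early enzyme of the pathway, and SREBF2 the transcription factor SREBP2 that drives it. HMGCS1 was lower in 4 of 4 rabbits at 1 week (14.7 to 23.3 against 19.2 to 30.4 CPM, log2FC -0.33 ± 0.18, adjusted p 0.195) and its log2FC was -0.16, 0.04 and -0.06 thereafter.

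SREBF2 itself was lower in repair at 1 and 4 weeks. It measured 35.7, 49.6, 38.2 and 48.2 CPM against 55.8, 53.7, 55.1 and 50.8 CPM at 1 week (log2FC -0.34 ± 0.15, adjusted p 0.106). At 4 weeks it measured 30.9, 36.1, 33.7 and 27.8 CPM against 36.7, 55.6, 50.7 and 40.7 CPM (log2FC -0.50 ± 0.14, adjusted p 0.11). The groups did not overlap at either time, and the gene was not called at 4 weeks with the rabbit as a fixed block (adjusted p 0.0606) but was when rabbit 59 was left out of that fit (0.0369) or an estimated correlation took the place of the block (0.0499). The acyl-CoA dehydrogenases ACAD9 and ACAD11, of mitochondrial and peroxisomal fatty acid oxidation, had log2FCs of -0.35 to 0.11 over the 4 times. Of the 4 genes matched by prefix alone, ABCF1 was called at 2 weeks, at 47.4, 82.7, 79.7, 61.4 and 87.3 CPM against 91.8, 93.5, 96.4, 98.6 and 104 CPM (log2FC -0.46 ± 0.12, adjusted p 0.0168), without overlap. The call was lost without the repair library of rabbit 59 (adjusted p 0.0598). ABCF2 was not called without the block and was with it (-0.53, adjusted p 0.0219, and 0.143 without rabbit 59), and ABCE1 and GPATCH8 were called under neither fit. Without these 4, the called members were 3, 5, 0 and 0.

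Each rabbit's own shoulders were then set side by side. Of the 38 members, 17 to 24 were higher in the repaired shoulder at 1 week (4 rabbits), 21 to 25 at 2 weeks (5 rabbits), 21 to 26 at 4 weeks (4 rabbits) and 15 to 22 at 8 weeks (3 rabbits). The median log2 ratio of a rabbit ran from -0.08 to 0.45 over the members and from -0.01 to 0.09 over all genes tested. Members more than 2-fold higher in repair, on log2 (CPM + 0.5), numbered 16 in rabbit 59 and 10 in rabbit 62, but 1, 0 and 2 in rabbits 60, 61 and 64, all of 2 weeks. At 8 weeks each of the 3 rabbits had 1. The rabbits of 2 weeks thus fell far apart from each other, and most of the 2-fold differences of that time came from rabbits 59 and 62. These were also the 2 repaired shoulders with the highest macrophage sums of that time (558 and 149 CPM, over 11.2 to 24.1 CPM in the other 3) and fibroblast sums (56770 and 15440 CPM, over 599.6 to 1831 CPM). They also had the highest adipocyte sums (692 and 1070 CPM, over 329 to 597 CPM) and the lowest muscle fibre sums (9498 and 15630 CPM, under 31010 to 43290 CPM). The part of these markers in the differences was not tested. Shares of all genes past 2-fold are not given, so the counts per rabbit are not shown to be particular to the members.

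**Figure D4:**
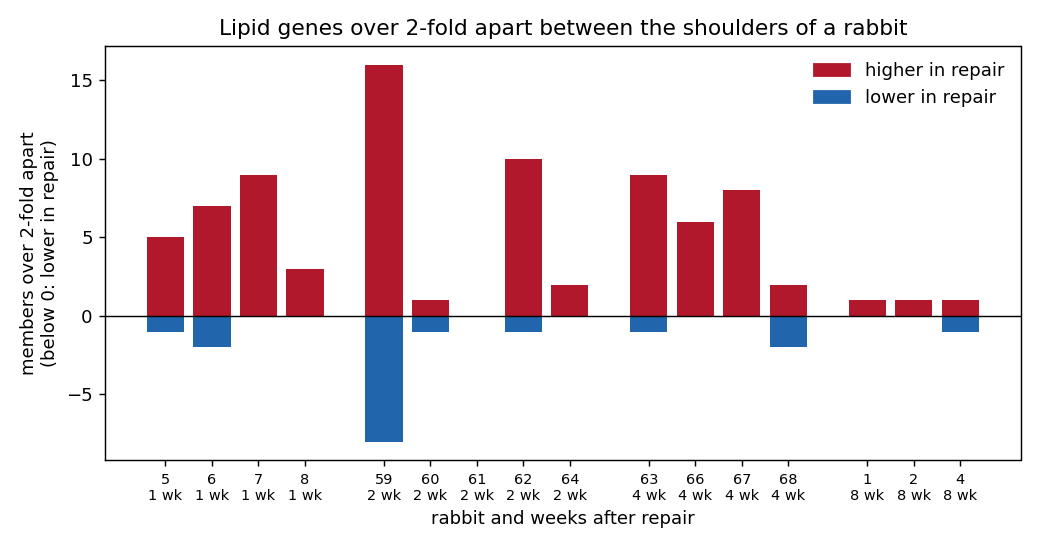
Number of the 38 lipid genes more than 2-fold higher (red, above 0) or lower (blue, below 0) in the repaired than in the control shoulder, for each of 16 rabbits with both shoulders in the fit, by weeks after repair. Rabbit 59 has 16 higher and 8 lower, and rabbit 61, also of 2 weeks, has 0 of either. Shares of all genes past 2-fold are not given.

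Whether the repair effect differed between times was tested within each series. Between 1 and 8 weeks 0 of 38 members differed at an adjusted p of 0.05, as did 0 of 12937 genes, with 5.28% of all genes at an unadjusted p under 0.05. Between 2 and 4 weeks the counts were also 0 and 0, with 2.77% at an unadjusted p under 0.05. Calls at 1 or 2 weeks that are missing at 4 or 8 weeks are therefore not shown to be a change over time. At 4 and 8 weeks few genes of any kind were called (0.124% and 0.00773%), and the cause of that was not tested.

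For the wider pathways, 44 other tested genes (42 symbols) with known lipid roles that the name pattern did not take were counted. Of these, 8 rose and 2 fell at 1 week (6.81% and 6.88% of all genes) and 8 rose and 5 fell at 2 weeks (7.95% and 7.92%). At 4 weeks 2 of the 44 rose and 0 fell (0.0773% and 0.0464%), and 0 were called at 8 weeks (0.00773%). In sterol handling, 3 of 12 rose at 1 week and 4 of 12 at 2 weeks, with 0 called lower. At 1 week 5 of the 12 lay above every control and 2 below, beside 16.1% and 13.3% of all genes. The 2 below were VLDLR and PMVK. VLDLR, a lipoprotein receptor, held 74.8 to 274 CPM in repair against 335 to 474 CPM (log2FC -1.18 ± 0.41, adjusted p 0.054). PMVK, a mevalonate pathway kinase, held 33.1 to 42.1 against 44 to 48.6 CPM (-0.37 ± 0.14, adjusted p 0.0707). Both were called lower at 1 week in the fit that left out rabbit 59's repaired shoulder (adjusted p 0.02 and 0.0326). CYP27A1, which makes 27-hydroxycholesterol, held 44.2 to 83.4 CPM in repair against 12.1 to 22.3 CPM at 1 week (log2FC 1.94 ± 0.25, adjusted p 5.8e-05), and NR1H3, the oxysterol receptor LXR alpha, 7.74 to 17.9 against 3.40 to 5.66 CPM (1.27 ± 0.33, adjusted p 0.0143). SOAT1, which esterifies cholesterol for storage, measured 34.4 CPM in rabbit 59, 14.3 CPM in rabbit 62 and 4.97 to 5.56 CPM in the other 3 repaired shoulders at 2 weeks, over controls of 2.29 to 5.05 CPM. It was called with rabbit 59 (log2FC 1.58 ± 0.47, adjusted p 0.0286) and not without its repair library (1.05 ± 0.35, adjusted p 0.083). At 1 week SOAT1 held 8.23, 12.2, 11.1 and 9.02 CPM in repair against 4.28 to 4.77 CPM in control. In the fit without that library it was called at 1 week (1.14 ± 0.26, adjusted p 0.00306). In fatty acid oxidation, 2 of 12 fell and 1 rose at 1 week, and 4 of 12 fell and 0 rose at 2 weeks. More fell at 1 week without the repair library of rabbit 59, namely ETFA, ETFDH, ACAA2, SCP2 and ECHS1 (adjusted p 0.00216 to 0.0248). Among the falls called on all 33 libraries were SCP2, the peroxisomal sterol carrier and thiolase (-0.35 at both times, adjusted p 0.049 and 0.0272, the latter 0.112 without the repair library of rabbit 59), and ACAA2, a mitochondrial thiolase, at 2 weeks (-0.58 ± 0.18, adjusted p 0.0321, and 0.118 without that library). Of the 13 calls among the 44 genes at 2 weeks, 2 were left in the fit without that library, 1 of 2 SCD identifiers and ETNK1. At 1 and 4 weeks that fit called more of the 44 genes than the fit on all 33 libraries, beside 28.7% and 2.76% of all genes. Those of 4 weeks, all higher, were CD36, CDS2, HACD2, LIPE, SOAT1 and 1 of 2 SCD identifiers (adjusted p 0.00264 to 0.0479). Among those added at 1 week was CD36, higher in repair (adjusted p 0.0136). SLC25A20, the mitochondrial carnitine and acylcarnitine carrier, rose at 1 week from 29.1 to 40.5 CPM in the controls to 43.8 to 66.2 CPM in repair (0.67 ± 0.17, adjusted p 0.0144).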

How the data were processed

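The deposited values were expected counts per gene, not normalised, from the RSEM 1.3.0 and STAR 2.5.1a pipeline of the authors on the rabbit assembly OryCun2.0. Symbols came from 2 supplementary tables of the study (one of them a co-expression table of its repair libraries), which pair identifiers with symbols; no reported value was used. In the labels, a time code was taken to give the weeks from tenotomy to repair, then those from repair to sampling.

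The 33 libraries without the left library of rabbit 3 were analysed in R 4.3.3. Genes needed a CPM above 1 somewhere. TMM scaling (edgeR 4.0.16) preceded the limma-voom fit (version 3.58.1 of limma), with 1 coefficient per group and no block, as in the study. p-values were adjusted by Benjamini-Hochberg over 12937 genes; a gene was called at 0.05. Printed levels are TMM-normalised CPM. Counts were rounded for edgeR's quasi-likelihood test and DESeq2 1.42.0. One member is not reported here by name or value and the others are named; those called without the block have their values by library, others shown so were chosen after their values were seen. The members and lists were chosen with earlier results of these data known. The scripts were tested on simulated data.

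Shoulders were paired by rabbit, from the sample titles; across 16 rabbits their residuals correlated at -0.00462 to 0.474 (median 0.277). No library duplicated another (highest r 0.990). The labels do not say how the libraries were spread over sequencing runs.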

Additional observations from a re-analysis of the deposited data

Results flagged for a closer look

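Within groups of 4 or 5 libraries, single values far from the rest of their group were looked for in the members called at 1 or 2 weeks. There were 5 such values in 49 groups. The rule takes chance to give about 1 in 20. That rate was not checked for CPM values of genes picked by their calls, so no conclusion is drawn from the count. ABCC3 stood at 12.8 CPM in the repaired shoulder of rabbit 59 at 2 weeks, with 2.94 CPM as the next value. OSBPL7 stood at 1.53 CPM in the control of rabbit 63 at 4 weeks (next 0.561 CPM), PLTP at 80.3 CPM in the control of rabbit 4 at 8 weeks (next 57.6 CPM) and ACOT13 at 17.4 CPM in the control of rabbit 2 at 8 weeks (next 14 CPM). GPAT4 was low, at 72.8 CPM, in the repaired shoulder of rabbit 7 at 1 week (next 86.7 CPM).

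In the left library of rabbit 3, which the fit left out, 11 of 38 members lay above every control of 8 weeks, 23 lay below and 2 had no count, beside 39.8%, 50.3% and 8.82% of all 12937 genes. Against the average of the 3 remaining 8-week repair libraries, r across genes was 0.707 on log2 CPM; genes are not independent replicates.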

How the results depend on the processing

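Counts of called members moved by more than 1.5 times under most alternatives at 1 and 2 weeks. At 1, 2 and 4 weeks (3, 6 and 0 as reported) a fixed block for the rabbit gave 10, 17 and 2. They were 6, 12 and 2 with an estimated correlation of 0.174 between the shoulders, 4, 16 and 2 with edgeR, 5, 18 and 3 with DESeq2, and 12, 3 and 3 with sample quality weights (32.3%, 6.31% and 7.98% of all genes), which alone called 1 at 8 weeks (FABP7, 0.649%). With all 34 libraries they were 1, 1 and 0 (2.25%, 3.16% and 0.0383%), with no filter 2, 6 and 1 (9.0%, 11.5% and 0.286%), with the libraries of a time point alone 8, 0 and 0 (24.4%, 0.0396% and 0%), and with symbols of the identifier-ordered table alone 1, 3 and 0 of 19 (15.2%, 18.3% and 0.215% of that table's 1863 genes). The blocked fit without rabbit 59, chosen after seeing the data, gave 14, 2 and 3. Leaving out each library in turn gave 0 to 9, 1 to 16, 0 to 2 and 0 at the 4 times, while the share of all genes called ran from 4.58% to 28.7%, 2.62% to 26.7%, 0.0155% to 2.76% and 0% to 0.0309%. The libraries that moved a count beyond 1.5 times were, at 1 week, the controls of rabbits 5, 6 and 8 and the repaired shoulder of rabbit 7 (1 each), the control of rabbit 7 (0) and the repaired shoulder of rabbit 59 (9), a rabbit of 2 weeks. At 2 weeks they were the repair libraries of rabbits 59 (1), 60 (11), 62 (2) and 64 (16) and the controls of rabbits 60 and 61 (3 each). At 4 weeks they were the control of rabbit 63 (1) and the repair libraries of rabbit 68 and rabbit 59 (2 each). The other filters and size factors kept every count within 1.5 times, and both differences between times stayed at 0 under every alternative run. The cause of these moves was not tested.

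Of 1232 alternative values for the 7 members called at some time, 1133 kept direction and call, 71 lost a call, 21 gained one and 7 reversed, each of the last at 8 weeks, where none was called. With all 34 libraries these were OSBPL7 (0.11), GPAT4 (0.67), ACOT13 (0.094) and ABCF1 (0.23). With one library left out they were ABCC3 (range -0.013 to 0.402) and ACOT13 (0.054 and 0.071 in a range of -0.092 to 0.071).

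Precision was limited by 3 to 5 libraries a group. FABP7, GPAT2, OSBPL10 and ABCC3 were near 1 CPM in many libraries, and symbols covered 3310 of 12937 genes.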
